A study of Mus musculus with 6 samples.

Results

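Keratins 7, 8, 18 and 19 are intermediate filament proteins of simple, single-layered epithelia, and the other genes described here encode proteins that join epithelial cells to each other or sit in their membranes. The members were chosen by gene symbol: all probe sets that the platform annotation lists with Krt7, Krt8, Krt18, Krt19, Dsp, Jup, Cdh1, Epcam, Tjp1 or Emp1. All 10 genes were on the array, with 14 of its 12422 probe sets for mouse genes. For each gene 1 probe set, 10 in all, was bright enough to be tested, among 7453 tested. The other 4 probe sets, second ones of Dsp, Krt18, Krt19 and Tjp1, fell below the filter on dim probe sets.

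Total RNA came from cultured mouse embryonic stem cells in exponential growth. The 3 groups, with 2 Affymetrix arrays each, were wild-type cells and 2 lines null for H1c, H1d and H1e, called line 1 and line 2 here. These genes encode linker histones, which bind nucleosomes where DNA enters and leaves. No treatment is given in the labels. They number the 2 arrays of a line as experiment 1 and 2, but leave unsaid whether these are 2 cultures or 1. The spread behind every p-value is therefore that between arrays and may be technical. The question put to the data is which genes respond to a lower amount of linker histone.

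In simple epithelia the type II keratins Krt7 and Krt8 pair with the type I keratins Krt18 and Krt19 into filaments, which are anchored at desmosomes through desmoplakin (Dsp) and plakoglobin (Jup). E-cadherin (Cdh1) holds cells together at adherens junctions, zonula occludens 1 (Tjp1) is a scaffold of tight junctions, and Epcam and Emp1 are epithelial membrane proteins. In the early mouse embryo Krt8 and Krt18 mark the first epithelia, trophectoderm and extraembryonic endoderm, while E-cadherin is also the adhesion receptor of embryonic stem cells themselves.

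Krt8 and Krt18 are neighbours in the genome and read away from each other, with only noncoding genes between them in RefSeq. Their promoters, with that of Emp1, the gene with the largest change, are shown because these had the largest changes among the members. RefSeq's promoter table (GRCm38.p6) held 8 of the 10 members; Cdh1 and Krt19 had none there. Each sequence runs 5′ to 3′ along its gene, from 250 bases before to 50 bases after the annotated start. For Emp1 the first of 2 annotated starts is shown. Capitals mark matches on either strand to the letters of a TATA box, written TATAAA, a GC box, written GGGCGG, an AP-1 motif, written TGANTCA, an Ets motif, written GGAAGT, or an E-box, written CANNTG.
Krt8, chr15:102004293-102004592, minus strand: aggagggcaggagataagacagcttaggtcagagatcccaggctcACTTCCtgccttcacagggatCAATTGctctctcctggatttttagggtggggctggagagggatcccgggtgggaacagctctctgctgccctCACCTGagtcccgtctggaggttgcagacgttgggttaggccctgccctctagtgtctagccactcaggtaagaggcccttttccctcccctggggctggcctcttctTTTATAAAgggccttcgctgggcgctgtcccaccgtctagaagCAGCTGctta
Krt18, chr15:102027966-102028265, plus strand: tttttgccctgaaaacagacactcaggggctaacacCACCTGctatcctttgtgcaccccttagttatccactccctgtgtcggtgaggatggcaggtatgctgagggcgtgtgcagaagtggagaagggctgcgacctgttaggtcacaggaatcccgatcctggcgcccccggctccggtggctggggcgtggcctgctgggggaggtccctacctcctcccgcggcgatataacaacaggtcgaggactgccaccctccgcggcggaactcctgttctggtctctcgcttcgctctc
Emp1, chr6:135362681-135362980, plus strand: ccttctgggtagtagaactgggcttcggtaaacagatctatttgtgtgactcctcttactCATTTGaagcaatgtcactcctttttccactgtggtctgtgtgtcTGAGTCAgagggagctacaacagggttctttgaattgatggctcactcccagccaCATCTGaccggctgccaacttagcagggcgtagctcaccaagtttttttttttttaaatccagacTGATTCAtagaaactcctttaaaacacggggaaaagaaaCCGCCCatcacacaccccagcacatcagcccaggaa

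The Krt8 promoter held 2 overlapping TATAAA matches, 1 per strand, at the annotated start, 1 GGAAGT match and 3 CANNTG matches. The Krt18 promoter held 1 CANNTG match and none of the other motifs. The shown Emp1 promoter held 2 TGANTCA matches, at -145 and -25 bases from the start, with 1 GGGCGG and 2 CANNTG matches. The promoter at the other annotated Emp1 start held none of these motifs, and which start these cells use was not tested. Of all 32851 promoters in the table, 7.81% held TGANTCA, 13.6% TATAAA, 23.8% GGAAGT, 35.7% GGGCGG and 72.3% CANNTG. A match describes letters and does not show that a factor binds there.

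All values are linear intensities, 1 per probe set and array. The median intensity per array lay between 34.1 and 39.5, and the highest of 19 bacterial and yeast control probe sets, taken as background, between 9.1 and 17.2. As a sign of RNA integrity, the 3′ over 5′ probe sets had log2 ratios between -0.26 and -0.13 for Gapdh and between 0.21 and 0.4 for Actb. The stem cell label was checked on its markers: Pou5f1 averaged 1532 in wild-type and 1666 in null cells, Nanog 1333 and 1252, and Sox2 1410 and 1380. All 10 tested member probe sets were above background on all 6 arrays. Changes below are on the log2(value + 2.4) scale, which understates changes of dim genes. The call is a limma p-value, adjusted over all probe sets tested, under 0.05, and intervals are 95% intervals of single genes, not adjusted.

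Emp1 was the member that passed the test: its intensity in the null lines was 2.0-fold lower than in wild-type cells. Krt8 and Krt18 came next, at 61.1% and 57.0% of wild type, without passing. All 10 members had a negative change in the average of the null lines, against 52.7% of all probe sets tested, and their median log2 change was -0.36, against -0.01 for all. The 4 null arrays lay below both wild-type arrays for 6 of the 10, Krt8, Krt18, Krt19, Dsp, Jup and Emp1, against 12.0% of all. An unadjusted p under 0.05 with a lower value was found for 5, Krt8, Krt18, Krt19, Dsp and Emp1, against 7.18% of all. After adjustment 1 of the 10 was called lower and none higher, against 0.161% of all called lower. The members were chosen with earlier results of these data known, so these counts and shares are a description and not a test. The smallest two-sided p that permuting 2 against 4 arrays allows is 0.0667, and the calls therefore rest on the limma model. Such permuting treats the arrays as exchangeable, though they come from 3 lines. With 1 wild-type line, a change in both null lines cannot be told apart from a trait of that wild-type line.

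**Figure D1:**
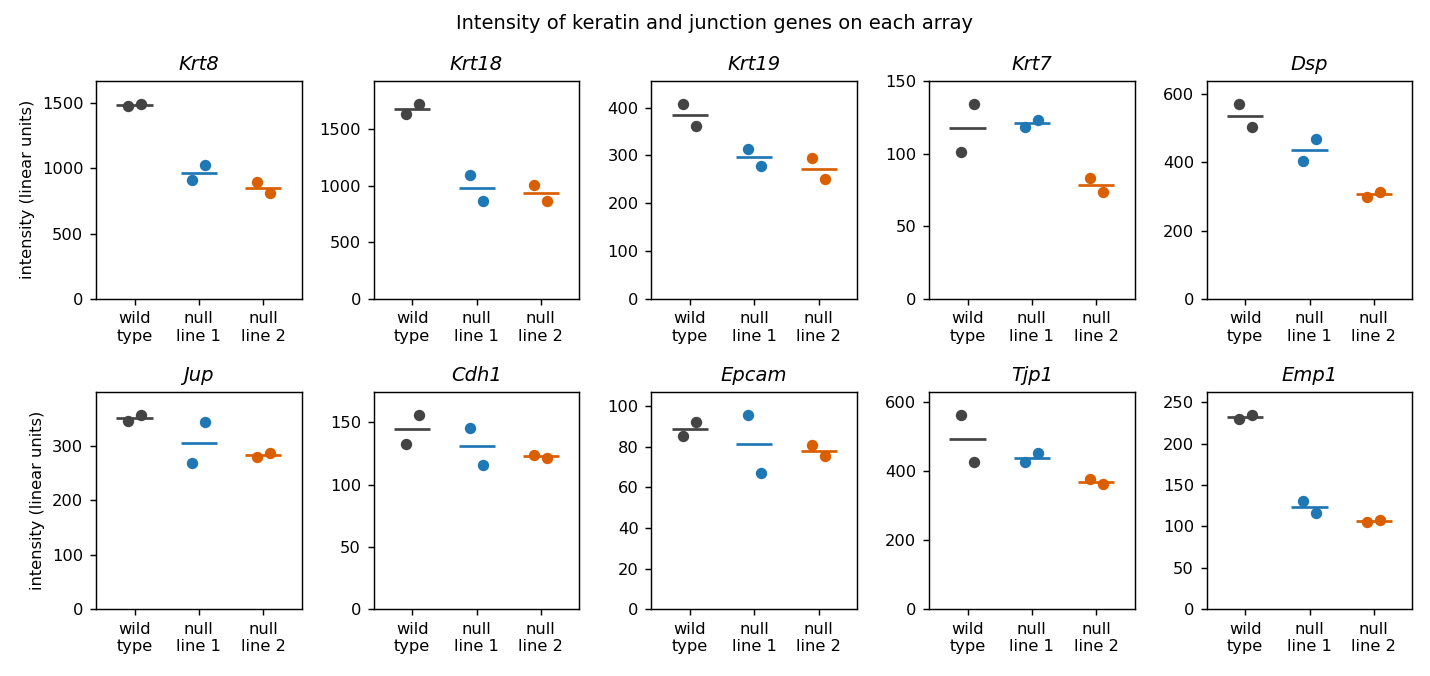
Intensity (linear units, axes from 0) of the tested probe set of each of the 10 genes on each of the 6 arrays; points are arrays and horizontal bars the mean of the 2 arrays of a line. Krt8, Krt18 and Emp1 show the 4 null arrays well below both wild-type arrays, and Dsp and Krt7 are lowest in line 2. For Cdh1 and Epcam line 1 overlaps with wild type and with line 2, while line 2 is below wild type.

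Among the type II keratins, Krt8 measured 1476 and 1491 on the wild-type arrays, 909 and 1024 in line 1, and 895 and 809 in line 2. The wild-type arrays differed little from each other, and every null array was lower than both. The means were 1483 ± 10.7 (SD, n = 2) in wild type, 966 ± 80.8 in line 1 and 852 ± 61.0 in line 2. The log2 change was -0.71 ± 0.11 (SE, interval -0.99 to -0.43, limma adjusted p = 0.0898) in the null average, -0.62 in line 1 and -0.80 in line 2.

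Krt7, the other type II keratin, had its lowest values in line 2. It measured 101.4 and 134 in wild type, 118 and 124 in line 1, and 83.4 and 73.4 in line 2. Line 1 lay within the wild-type range and line 2 below it. The log2 change was 0.05 in line 1 (interval -0.36 to 0.46) and -0.56 in line 2 (interval -0.97 to -0.15, limma adjusted p = 0.247). The tested difference, line 1 minus line 2, was 0.61 ± 0.17 (SE, limma adjusted p = 0.613), which does not pass. In the null average Krt7 was at -0.26 (limma adjusted p = 0.522), and between -0.45 and -0.06 when 1 array was left out.

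Among the type I keratins, Krt18, the usual partner of Krt8, measured 1630 and 1719 in wild type, 1094 and 866 in line 1, and 1009 and 865 in line 2. Its null arrays did not reach the wild-type range, and the arrays within each null line were further apart than the means of these lines. Its log2 change was -0.81 ± 0.14 (SE, interval -1.16 to -0.46, limma adjusted p = 0.115), with -0.78 in line 1 and -0.84 in line 2. A second probe set of Krt18 was at or below background on all arrays (2.9 to 8.2), so it gives no second measurement. Mammalian genomes carry many processed copies of Krt8 and Krt18, and whether such copies reach these probe sets was not tested.

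Krt19, a small keratin that can pair with Krt7 or Krt8, measured 407 and 361 in wild type, 314 and 278 in line 1, and 294 and 250 in line 2. All null arrays were below the wild-type arrays, and the null lines overlapped. Its log2 change was -0.43 ± 0.13 (SE, interval -0.75 to -0.12, limma adjusted p = 0.274). Its dim second probe set measured 21.1 and 14.1 in wild type, 13.1 and 11.3 in line 1, and 6.4 and 3.2 in line 2. That probe set was above background on 3 of the 6 arrays and was not tested.

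The array held 29 further keratin genes, of squamous epithelia and hair among others, of which 16 were above background on all arrays by their brightest probe set, 5 on some and 8 on none. The keratins of basal epidermis, Krt5 and Krt14, were among those at or below background. Of the 17 tested, none was called by limma and none had an unadjusted p under 0.05. They had 9 negative changes and a median of -0.08, between -0.39 for Krt6b and 0.70 for Krt12, which passed the filter only through the null lines. Krt20, also a keratin of simple epithelia, was at -0.33, and between -0.62 and -0.04 when 1 array was left out. The difference between these keratins and the 4 members was not tested.

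At the desmosome, Dsp, the protein that ties keratin filaments to the plaque, measured 570 and 503 in wild type, 405 and 470 in line 1, and 299 and 314 in line 2. The 3 lines did not overlap, with line 2 lowest. The log2 change was -0.55 ± 0.12 (SE, interval -0.85 to -0.25, limma adjusted p = 0.174) in the null average. It was -0.29 (interval -0.64 to 0.05) in line 1 and -0.80 (interval -1.15 to -0.46) in line 2. The difference between the lines was 0.51 ± 0.14 (SE, limma adjusted p = 0.613). The other Dsp probe set was at or below background on all arrays (0.4 to 3.6).

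Jup, which is found in desmosomes and adherens junctions alike, measured 345 and 356 in wild type, 269 and 343 in line 1, and 280 and 286 in line 2. One line 1 array lay close under the wild-type arrays, while the other null arrays were lower. The log2 change was -0.26 ± 0.13 (SE, interval -0.58 to 0.07, limma adjusted p = 0.48), and between -0.34 and -0.17 when 1 array was left out.

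The smallest changes in the null average were those of the adhesion receptors. Cdh1, the adherens junction receptor, measured 133 and 156 in wild type, 145 and 116 in line 1, and 124 and 122 in line 2. Epcam measured 85.2 and 92.1, 95.5 and 67.2, and 80.6 and 75.2 in the same order of lines. Wild-type and line 1 arrays overlapped for both genes, and 1 line 1 array of Epcam was the highest of all 6. The line 2 arrays of both genes were below both wild-type arrays. The log2 change was -0.19 ± 0.14 (SE, interval -0.52 to 0.15, limma adjusted p = 0.624) for Cdh1 and -0.16 ± 0.16 (SE, interval -0.55 to 0.23, limma adjusted p = 0.729) for Epcam. Neither passed. Leaving out 1 array moved Cdh1 to between -0.30 and -0.07 and Epcam to between -0.28 and -0.04.

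Tjp1, the tight junction scaffold, measured 563 and 427 in wild type, 427 and 452 in line 1, and 378 and 362 in line 2. The wild-type arrays were far apart and overlapped with line 1, whereas line 2 was below both. For Tjp1 the log2 change was -0.28 ± 0.14 (SE, interval -0.63 to 0.06, limma adjusted p = 0.472), with -0.16 in line 1 and -0.40 in line 2. The change in the null average was -0.08 without wild-type array 1 and -0.48 without wild-type array 2. Its other probe set was at or below background on all arrays (0.6 to 2.8).

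Emp1, a small membrane protein of the family that also holds Pmp22, measured 230 and 234 in wild type, 131 and 117 in line 1, and 105 and 108 in line 2. The arrays of each line lay close together, and the highest null array was far below both wild-type arrays. Emp1 fell by 1.0 on the log2 scale in the null average (SE 0.11, interval -1.26 to -0.74, limma adjusted p = 0.0334), and all 4 null arrays were lower. It fell by 1.11 in line 2 (limma adjusted p = 0.0431), and its log2 change of -0.89 in line 1 did not pass (limma adjusted p = 0.0888). The difference between the lines, 0.21 ± 0.13 (SE, limma adjusted p = 0.686), did not pass either. The call in the null average needed every array: without any 1 of the 6 the log2 change was between -1.04 and -0.96, and the limma adjusted p between 0.0829 and 0.313. It was 0.185 without the filter on dim probe sets and 0.081 with the experiment number as a replicate block.

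**Figure D2:**
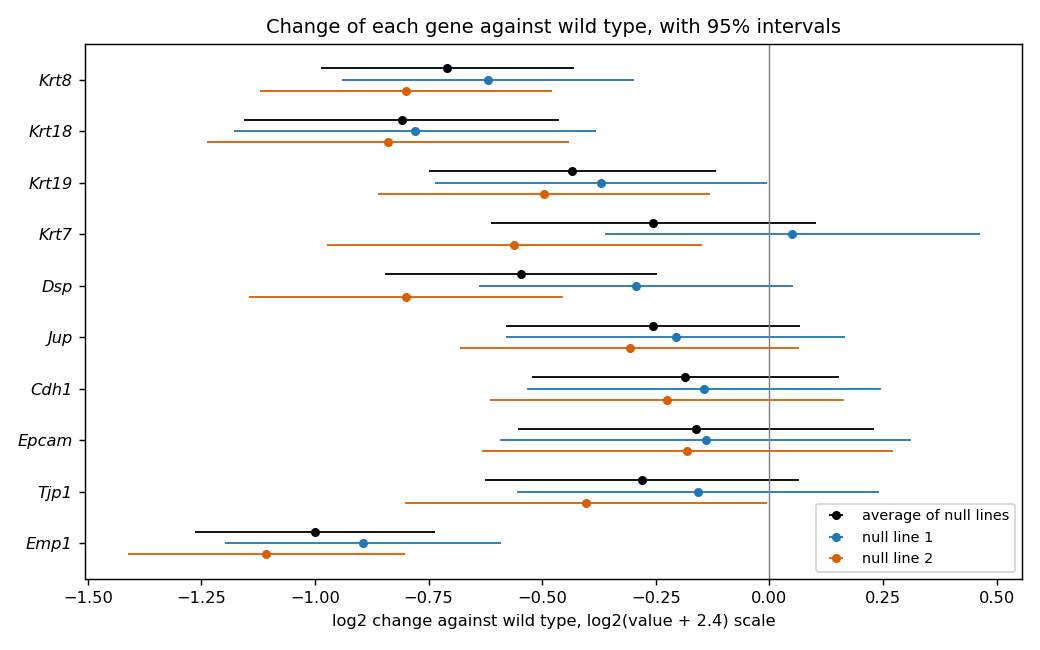
Log2 change of each gene against wild type (horizontal axis, log2(value + 2.4) scale) for the average of the null lines (black), line 1 (blue) and line 2 (orange), with 95% intervals that are not adjusted for the number of genes. Emp1, at -1.0 in the average, is farthest from 0, followed by Krt18 and Krt8. The intervals of Cdh1, Epcam and Jup include 0 for both lines.

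By line, 1 of the 10 members was called lower in line 2 (Emp1), against 0.107% of all probe sets tested. In line 1 none was called by limma, against 0.0268% of all called lower. An unadjusted p under 0.05 with a lower value was found for 7 members in line 2, against 7.89% of all, and for 4 in line 1, Krt8, Krt18, Krt19 and Emp1, against 5.51% of all. The median log2 change of the members was -0.53 in line 2 and -0.25 in line 1, against -0.01 for all probe sets in each. Both comparisons use the wild-type arrays, so they are not independent of each other.

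Set against each other, the null lines gave no called member by limma, and 0.0268% of all probe sets were called in either direction. By the mean of the log2 values, line 1 minus line 2 lay between 0.04 and 0.61 for the members, with a median of 0.15. Over all probe sets the median was -0.01, and the 5th and 95th percentiles were -0.41 and 0.42. For Cdh1, Epcam, Jup and Krt18 the sign turned when 1 array was left out. Both line 2 arrays were below both line 1 arrays for 5 members, Krt7, Krt8, Dsp, Tjp1 and Emp1, against 18.9% of all. Krt7 and Dsp were the 2 with an unadjusted p under 0.05 and a higher value in line 1, against 4.04% of all.

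The arrays' profiles were also compared gene by gene, as the root mean square difference between log2 values after centring each probe set on its mean over the 6 arrays. For Krt8 the nearest of 6724 other single-gene probe sets was Perp (0.06), a membrane protein of desmosomes. It was followed by Cdcp1, a transmembrane glycoprotein, Igfbp3, which binds insulin-like growth factors, Errfi1, an inhibitor of the EGF receptor, and Bcl2l11, a promoter of apoptosis, with differences between 0.07 and 0.08. For Krt18 the nearest were Gbp2 (0.05), an interferon-induced GTPase, and Lxn, Phldb2, Myh9, a nonmuscle myosin, and Cpe, a carboxypeptidase (0.09 to 0.10). Emp1 had nearest Tapbp, which helps load antigen peptides, Phldb2, Wls, which carries Wnt proteins to the surface, Wwtr1, a coactivator of the Hippo pathway, and the desmosomal cadherin Dsc2 (0.09 to 0.11).

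Krt8 and Krt18 were not each other's nearest profile. At a difference of 0.16, Krt18 had rank 90 for Krt8, and Krt8 had rank 40 for Krt18. Emp1 had rank 21 for Krt18, and Krt18 rank 12 for Emp1, at 0.14. Cdh1, Epcam and Krt7 were the members farthest from Krt8, at 0.30, 0.33 and 0.30, against a median of 0.39 over all probe sets compared. The measure covers 6 arrays of 3 lines and is a description without a test.

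**Figure D3:**
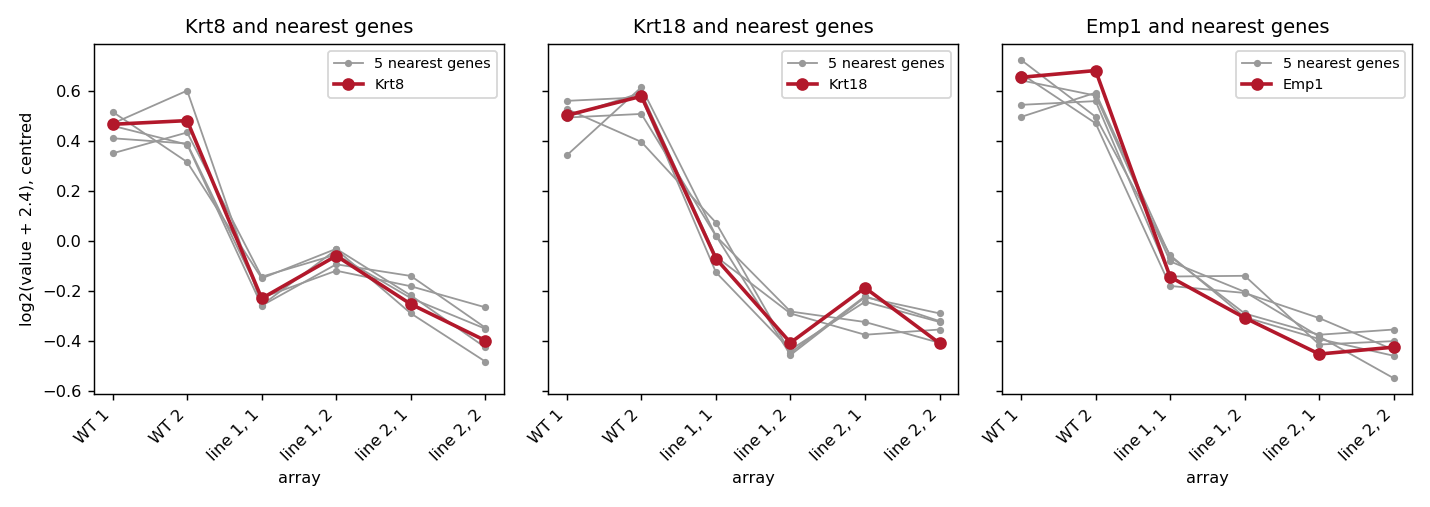
Log2(value + 2.4) of Krt8, Krt18 and Emp1 (red), each centred on its mean over the 6 arrays, with the 5 nearest other genes (grey). The arrays are on the horizontal axis, by line and experiment number, and the joining lines only guide the eye; in each panel both wild-type arrays lie above the 4 null arrays.

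Further genes were taken from 9 lists, with the brightest probe set standing for a gene. They covered intermediate filaments of any cell type, junctions, adhesion, other epithelial genes, and regulators of the epithelial and mesenchymal state. Of 86 genes tested, none was called by limma, against 0.336% of all 5654 genes called in either direction. An unadjusted p under 0.05 was found for 24 lower and 2 higher, where all genes gave 420 lower and 323 higher. The 24 include 2 regulators, Twist1 and Ets2. Of the 86, 59 had negative changes, with a median log2 change of -0.17, against -0.01 for all genes. Of all 5654 genes 2916 were negative, which also stands beside the counts of single lists below. The lists, too, were chosen with earlier results of these data known, so these counts are a description and not a test. For 8 of the 86 the mean of wild type or of the null lines was under the filter, so that they passed only through the group where they were high.

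Desmosome partners had a median of -0.44, with 4 of 6 negative. The desmosomal cadherin Dsc2 had means of 58.8 in wild type and 31.5 in the null lines (-0.85 ± 0.12, SE, limma adjusted p = 0.0548), and Perp 497 and 286 (-0.80 ± 0.13, SE, limma adjusted p = 0.0859). Dsg2, another desmosomal cadherin, was at -0.42 and Ppl, the plakin periplakin, at -0.46 (limma adjusted p = 0.373 and 0.325), and Dsg2 was at -0.16 without wild-type array 1 and -0.67 without wild-type array 2. The plaque proteins Pkp2 and Pkp4 were at 0.03 and 0.06. The cadherins Dsc1 and Dsc3 were at or below background on all arrays.

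Of tight junction genes, the 4 claudins tested, which form the seal between cells, had negative changes: Cldn3 at -0.79, Cldn4 at -0.70, Cldn6 at -0.58 and Cldn7 at -0.44 (limma adjusted p between 0.109 and 0.224). Of the other 9, the polarity genes Prkci, Pard6a, Pard3, Crb3 and Prkcz were at -0.21, -0.08, 0.02, 0.04 and 0.17, and the median of all 13 was -0.08. Adherens junction genes had 10 of 12 negative changes with a median of -0.09. The catenins that bind E-cadherin, Ctnnb1, Ctnna1 and Ctnnd1, were at -0.01, -0.14 and -0.03, and the lowest p belonged to Lpp, at -0.33 (limma adjusted p = 0.288), and Vcl, vinculin, at -0.31 (0.322).

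Genes of hemidesmosomes and basal adhesion had a median of -0.47, with 6 of 7 negative. Itgb4, the hemidesmosome integrin, had means of 53.8 and 31.3 (-0.78, limma adjusted p = 0.229). The laminin subunits Lamb3 and Lama3, which join in 1 laminin, each passed the filter only through the group where they were high, and each was below background on 1 array. Lamb3 measured 39.6 and 31.1 in wild type, 22.0 and 13.4 in line 1, and 15.1 and 7.9 in line 2, with the last value below background. Lama3 measured 20.3 and 13.0 in wild type, with the second below background, 31.5 and 33.7 in line 1, and 33.8 and 42.4 in line 2. Neither was called by limma. Of the relatives of Emp1, Pmp22 had means of 391 and 203 (-0.94 ± 0.14, SE, limma adjusted p = 0.0759). Emp2 had means of 56.0 and 36.2 (-0.59, limma adjusted p = 0.354), with a change of -0.97 without wild-type array 1 and -0.21 without wild-type array 2. Emp3 had means of 126 and 122 (-0.05, limma adjusted p = 0.933), turning positive when either wild-type array 2 or line 2 array 2 was left out. Gap junction genes had a median of -0.09 over 5 genes, with Gja1, a widely made connexin, at -0.09, Gja5 at -0.60 and Gjb5 at 0.46 (limma adjusted p = 0.778, 0.381 and 0.188). Gja5 was between -0.91 and -0.29 when 1 array was left out.

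Other epithelial genes had a median of -0.21 over 13, with 8 negative and 5 positive. The positive ones, Ezr, Cd24a, Esrp1, Muc1 and Esrp2, lay between 0.01 and 0.20. The protease inhibitor Spint1 was at -0.53 and the protease Prss8 at -0.64, with Anxa2 at -0.45 (limma adjusted p = 0.132, 0.177 and 0.194). Regulators of the epithelial and mesenchymal state had a median of -0.17 over 15, with Ets2 at -0.33 (limma adjusted p = 0.317). The mesenchymal factor Twist1, with means of 26.9 in wild type and 18.02 in the null lines, passed the filter only through wild type and was not called by limma. Keratins and filament proteins outside the members had a median of -0.02 over 12, with 6 of 12 negative. Which of these lists differ from the members was not tested.

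**Figure D4:**
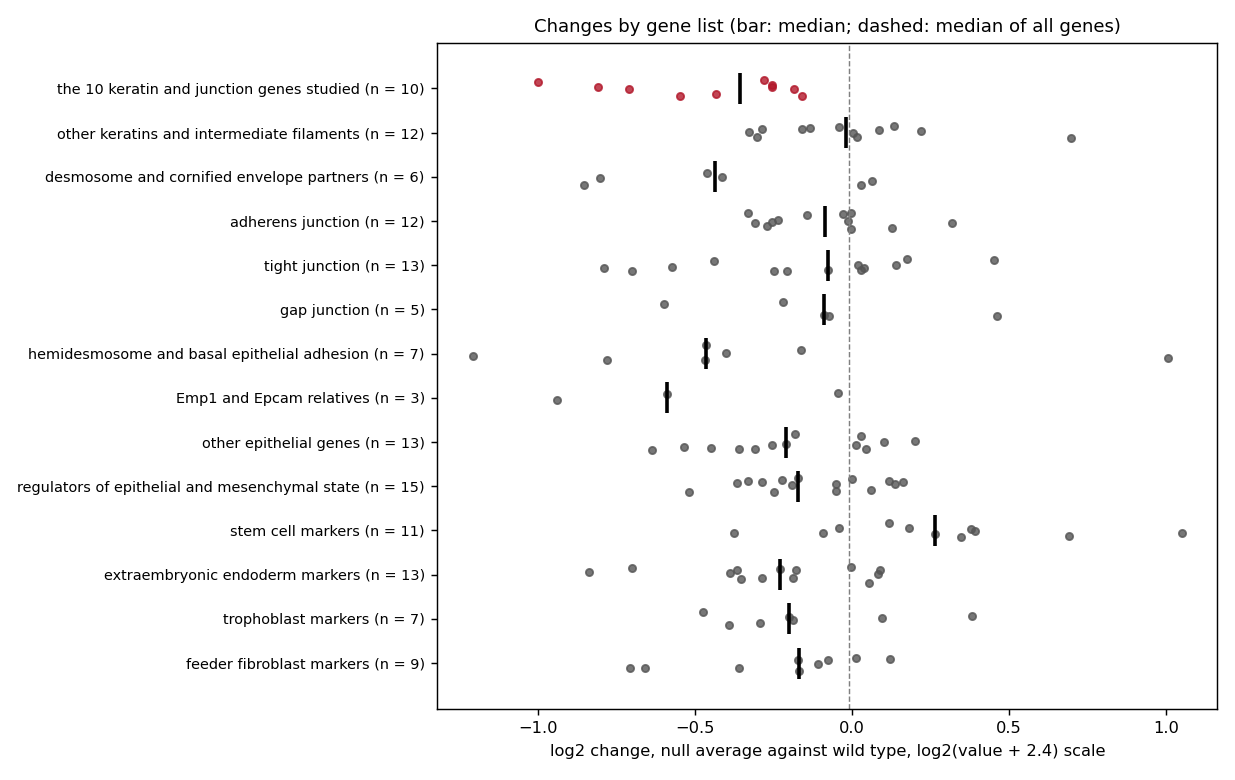
Log2 change in the average of the null lines against wild type (horizontal axis, log2(value + 2.4) scale) for each tested gene of the 10 members (red) and of each list (grey), with the median of each list as a bar and the median of all 5654 genes dashed at -0.01. The members, desmosome partners, basal adhesion genes and relatives of Emp1 have medians of -0.36 or lower, and stem cell markers a median of 0.26.

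Markers of the other cell types such cultures can hold were measured beside the members, whose own summed intensity was 5472 to 5540 in wild type, 3857 to 3909 in line 1 and 3263 to 3548 in line 2. Extraembryonic endoderm, which also makes Krt8 and Krt18, had 13 of 20 markers on the array tested. Of these 10 were negative, where 2916 of all 5654 genes were negative. The 1 called lower was the basement membrane collagen Col4a2 (-0.84, limma adjusted p = 0.0424), against 0.159% of all genes. At an unadjusted p under 0.05, 3 were lower, Col4a2, its partner Col4a1 (-0.70) and the matrix protein Sparc (-0.39), against 7.43% of all genes. The summed intensity of its 20 markers was 1991 to 2150 in wild type, 1580 to 1591 in line 1 and 1445 to 1459 in line 2. The largest parts of this sum were Sparc (means 602.5 in wild-type and 457.6 in null cells), Col4a1 (376.1 and 231.8) and Col4a2 (348.7 and 194.1). Afp and Cubn were at -0.002 and 0.08. Of the endoderm transcription factors, Foxa2 and Hnf4a were at or below background on all arrays and Gata6 on 3 of the 6. Gata4 averaged 123 in wild-type and 106 in null cells (-0.23), while Sox17 and Sox7 were at 0.05 and 0.09. Of 11 trophoblast markers, 7 were tested and none was called by limma (2 lower at an unadjusted p under 0.05, Hand1 and Peg10, against the same 7.43%). Their sum was 652 to 701, 542 to 628 and 504 to 527 in the same order, with Cdx2 and Elf5 at or below background on all arrays. The largest parts of this sum were Peg10 (means 295.5 in wild-type and 213.3 in null cells) and Hand1 (118.6 and 89.6). Of the 7 tested, 5 were negative and 2 positive, Plac1 at 0.38 and Ascl2 at 0.09.

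Of 16 fibroblast markers, which feeder cells would bring, 9 were tested and none was called by limma (3 lower at an unadjusted p under 0.05, Timp3 at -0.66, Acta2 and Tagln, against the same 7.43%). The sum was 2550 to 2616 in wild type, 1882 to 1993 in line 1 and 2117 to 2245 in line 2, carried largely by Tagln and Acta2 (-0.36 and -0.71), while Col1a1 and Col1a2 were at 0.01 and 0.12. Of 12 stem cell markers 11 were tested, with 8 positive changes, where 2738 of all 5654 genes were positive. The 1 call was Fbxo15, which rose by 1.05 (limma adjusted p = 0.0449), against 0.177% of all genes called higher. At an unadjusted p under 0.05, 4 were higher and none lower, where all genes gave 323 higher. These were Fbxo15, Dppa3 (0.69), Fgf4 (0.39) and Utf1 (0.38). Without any 1 array the calls of Fbxo15 and Col4a2 were lost (limma adjusted p between 0.0859 and 0.409 for Fbxo15, and between 0.101 and 0.38 for Col4a2). The sum of the stem cell markers was 8154 to 8288, 9048 to 9740 and 8782 to 8928. The part of these cell types in the keratin and junction values was not tested. In bulk RNA, fewer cells of a type and less RNA per cell cannot be told apart.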

How the data were processed

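The deposited values are linear array intensities, 1 per probe set and array, made by the authors with MAS5 per the submitters' processing notes (version not stated there). The 2% trimmed mean of every array was 100.1, so that scaling was kept. Detection calls were not used here. Gene names came from the platform annotation (10833 probe sets with 1 gene, 396 with several, 1193 with none), with symbols updated by gene ID through RefSeq genes of GRCm38.p6 (10817 matched).

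The 66 control probe sets were left out. Values were tested as log2(value + 2.4), the pseudocount being the 10th percentile of all values, for the 7453 probe sets with a mean at or above the 40th percentile (20.9). A model of 1 mean per line over all 6 arrays was fitted in limma 3.58.1 under R 4.3.3 (lmFit, eBayes, 3 residual and 3.2 prior degrees of freedom), and p-values were adjusted by Benjamini-Hochberg across all probe sets tested. The procedure was run on simulated data with planted changes about as large as that of Emp1 or larger, and with spreads shuffled over the probe sets. Smaller changes, such as those of the other members, were not simulated, so the run does not speak for them. The experiment number was not used as a block. The alternatives were another pseudocount, filter, scaling, spread, block and null model, and leaving out each array. Named are all members, up to 4 genes per list with the smallest p, the 5 nearest profiles of Krt8, Krt18 and Emp1, and further list and keratin genes chosen after their values were seen. The members and lists were chosen with earlier results of these data known. Figures were drawn with matplotlib 3.10.9.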

Additional observations from a re-analysis of the deposited data

How the results depend on the processing

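With all arrays, 1 member was called in the null average, none in line 1, 1 in line 2 and none between the null lines, and no gene of the 9 junction and epithelial lists. In the null average the members called were 2 with a pseudocount of 16 (Emp1 and Krt8) and 2 with the filter at the 50th percentile (Emp1 and Krt8). They were 4 with a spread that follows the signal (Emp1, Krt8, Krt18 and Dsp), 0 without a filter and 0 with the replicate block. For line 1 the count was 3 with a spread that follows the signal. For line 2 it was 4 with that spread, and 0 with a pseudocount of 0.5, without a filter and with the replicate block. Leaving out any single array gave 0 members in both comparisons. List genes called were 3 with a pseudocount of 16 and 3 with the stricter filter (Dsc2, Perp and Pmp22 in each), 3 with a spread that follows the signal (Cldn3, Perp and Pmp22) and 2 with the null arrays as 1 group (Dsc2 and Pmp22). The marker calls of Col4a2 and Fbxo15 were lost in 8 and 10 of 15 alternatives. Of 35 junction and epithelial genes examined, 11 moved by over 1.5 times or turned sign when 1 array was left out. Whether same-numbered arrays of different lines were handled together is not stated, and their deviations correlated by 0.05 to 0.10 between lines. The numbers were therefore not taken as a pairing. That correlation is over all probe sets tested and does not speak for single genes. Lmnb1 measured 607 and 198 in wild type, 531 and 245 in line 1, and 541 and 140 in line 2, by experiment number. The cause of the moves between alternatives was not tested beyond the construction of each alternative, such as fewer arrays or another number of probe sets. The change of Emp1 in the null average passed in 7 of 15 alternatives and stayed between -1.04 and -0.92.

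In the null average no member changed sign in any of 15 alternatives. Signs turned only where an array was left out. In line 1 this left Cdh1 between -0.303 and 0.0128, Epcam between -0.39 and 0.11, Krt7 between -0.15 and 0.25 and Tjp1 between -0.356 and 0.0412. Between the lines it left Cdh1 between -0.0775 and 0.238, Epcam between -0.21 and 0.29, Jup between -0.0746 and 0.276 and Krt18 between -0.11 and 0.23. Emp3 lay between -0.20 and 0.11 in the null average. Each value rests on 2 arrays per line, and their number limits the precision. The signal of second probe sets at background limits Dsp, Krt18 and Tjp1 to 1 probe set each.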
